A study of Mus musculus with 7 samples.

Results

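The Adamts, Mmp and Timp genes were described over 7 sorted cell populations of the mouse embryo, each hybridised to 1 single-colour Agilent array. Members were all non-control probes whose gene name on the array was Adamts, Mmp or Timp followed by a number, with 1 Adamts gene not analysed here. This gave 45 genes (18 Adamts, 23 Mmp and 4 Timp) of the 27126 named genes on the array, carried by 62 of 55681 probes and 80 of 59305 spots. All cells came from C57BL6J embryos with the Osr1-GFP knock-in, in which GFP marks cells that express Osr1, an early gene of the intermediate mesoderm and of kidney precursors. At E8.5 the whole embryo was split into GFP-positive and GFP-negative cells. At E9.5 the caudal part gave 3 populations: GFP-positive cells that were Itga8-positive and Pdgfra-negative (here the gated cells, enriched for nephron progenitors), the remaining GFP-positive cells (here other GFP-positive), and cells without GFP. At E11.5 the metanephric mesenchyme gave the gated and the other GFP-positive cells. The sort was designed to set nephron progenitors beside the mesenchyme around them. There were no replicates, so no difference below has a test. A difference of at least 2-fold (1 log2 unit) was counted, and the share of all measured genes that passed the same limit is given beside it. Whether a population held fewer expressing cells or less RNA per cell cannot be told apart in sorted bulk RNA.

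Adamts and Mmp enzymes are zinc proteases that act on the extracellular matrix. Adamts proteases are secreted and cut proteoglycans such as versican and aggrecan, trim procollagens or bind fibrillin microfibrils, while Mmps are secreted or membrane-bound, and cut collagens, laminins and many cell surface proteins. Most are made as inactive precursors, and Timps bind and block their active sites. In the developing kidney the matrix is remodelled as nephron progenitors, stroma and ureteric epithelium grow around each other.

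The sort genes followed the gates. Osr1 was above background in GFP-positive cells at every stage and not well above background in either GFP-negative population. Itga8, an integrin subunit of nephron progenitors, had log2 levels of 2.15 in E9.5 gated and 0.20 in E9.5 other GFP-positive cells, and of 2.82 in E11.5 gated and -1.31 in E11.5 other GFP-positive cells. Pdgfra, a growth factor receptor of mesenchyme, was at -0.52 in E9.5 gated and 3.44 in E9.5 other GFP-positive cells, and not well above background in E11.5 gated, against 4.04 in E11.5 other GFP-positive cells. Levels are log2 signal minus the 75th percentile of the array, and are compared only between arrays for 1 probe, not between genes. Between 56.2% and 84.1% of spots were well above background, with the E8.5 GFP-negative array lowest and the E9.5 other GFP-positive array highest. The E9.5 gated and E9.5 GFP-negative arrays were on 1 slide and the other 5 arrays on another, so comparisons across these slides hold slide and population together.

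All 18 Adamts genes and all 4 Timps were detected on at least 1 array, and the undetected members were all Mmps. Of the 45 members, 38 were well above background on at least 1 array and 20 on all 7, namely 10 Adamts, 7 Mmp and 3 Timp genes. The 7 detected on no array were Mmp1a, Mmp3, Mmp7, Mmp15, Mmp19, Mmp20 and Mmp25. By array, 32 members were above background in E8.5 GFP-positive and 20 in E8.5 GFP-negative cells. At E9.5 they numbered 33 in gated, 34 in other GFP-positive and 28 in GFP-negative cells, and at E11.5 29 in gated and 31 in other GFP-positive cells. These were 44.4% to 75.6% of members, beside 60.2% to 85.4% of all named genes, and the E8.5 GFP-negative array was lowest for both.

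**Figure D1:**
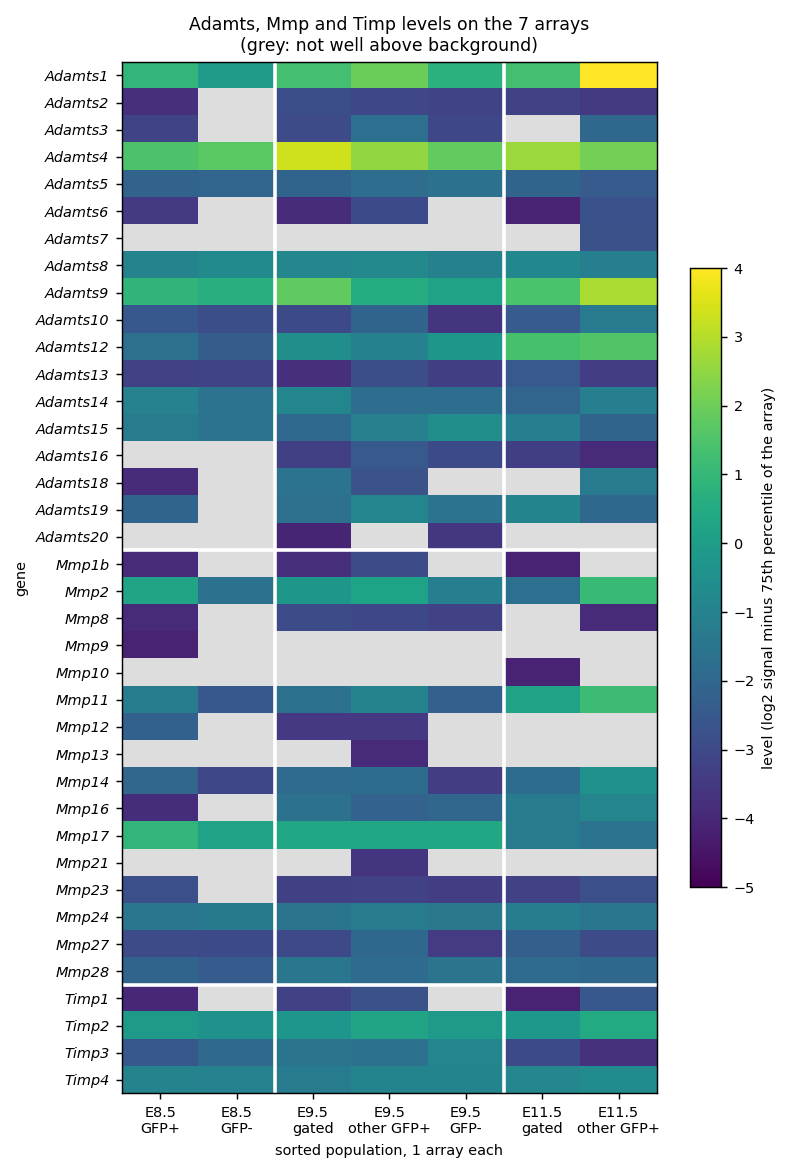
Log2 level (signal minus the 75th percentile of the array, colour) of the 38 members well above background on at least 1 array (rows) on the 7 arrays (columns, 1 array each). Grey cells are not well above background, as for Adamts7 on all arrays but that of E11.5 other GFP-positive cells.

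Detection differed along the genome. A cluster of 10 Mmp genes, whose probes lie at chr9:7282762-7697700 of mm9, holds the collagenases Mmp1a, Mmp1b, Mmp8 and Mmp13, the stromelysins Mmp3 and Mmp10, the matrilysin Mmp7, the macrophage elastase Mmp12, the enamel protease Mmp20, and Mmp27. Of these 10 genes, 4 were above background on no array and 1, Mmp27, on all 7. Among the other 35 members, 3 were above background on no array and 19 on all 7. The sequence just upstream of the annotated start also differed between the cluster and the rest. RefSeq starts were matched for 31 members, with 34 windows of 250 bases in GRCm38.p6. The AP-1 motif, TGANTCA, was in 8 of 12 cluster windows and in 0 of 22 windows of other members, against 6.75% of all 32851 windows. The TATA box letters TATAAA were in 7 of 12 cluster windows and 2 of 22 others, against 12.4% of all windows. The GC box letters GGGCGG were in 0 of 12 cluster windows and 16 of 22 others, against 32.7% of all windows. Both strands were searched, and a match is a match of letters, not a measured binding site. The windows below show this contrast for 3 members whose level spanned at least 2 log2 units over the arrays (Adamts1, Mmp11 and Mmp14) and for 3 cluster genes detected on 1 array or none (Mmp3, Mmp10 and Mmp13). The sequences are from RefSeq (GRCm38.p6) and end at the base before the annotated start, 5′ to 3′, with matches of the 3 motifs in capitals.
Adamts1 (chr16:85803114-85803363, minus strand): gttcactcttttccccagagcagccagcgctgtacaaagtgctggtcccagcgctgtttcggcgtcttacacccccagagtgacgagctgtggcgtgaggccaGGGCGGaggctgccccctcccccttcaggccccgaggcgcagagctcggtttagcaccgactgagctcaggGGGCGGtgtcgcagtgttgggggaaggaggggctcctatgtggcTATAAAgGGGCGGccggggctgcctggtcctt
Mmp11 (chr10:75932503-75932752, minus strand): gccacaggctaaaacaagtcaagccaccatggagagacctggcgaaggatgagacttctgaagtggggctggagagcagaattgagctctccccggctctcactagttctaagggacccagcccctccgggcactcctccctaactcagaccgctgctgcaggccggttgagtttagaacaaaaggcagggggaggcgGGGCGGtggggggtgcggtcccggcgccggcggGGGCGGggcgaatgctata
Mmp14 (chr14:54431348-54431597, plus strand): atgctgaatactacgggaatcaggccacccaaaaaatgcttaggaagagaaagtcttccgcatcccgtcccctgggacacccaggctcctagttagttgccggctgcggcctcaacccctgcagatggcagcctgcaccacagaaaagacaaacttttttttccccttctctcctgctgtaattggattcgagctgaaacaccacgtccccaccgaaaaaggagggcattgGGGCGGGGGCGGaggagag
Mmp3 (chr9:7445572-7445821, plus strand): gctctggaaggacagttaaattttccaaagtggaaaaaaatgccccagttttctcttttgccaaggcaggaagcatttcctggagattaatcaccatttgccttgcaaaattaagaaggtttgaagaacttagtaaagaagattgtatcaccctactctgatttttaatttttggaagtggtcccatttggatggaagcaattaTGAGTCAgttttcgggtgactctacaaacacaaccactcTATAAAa
Mmp10 (chr9:7502092-7502341, plus strand): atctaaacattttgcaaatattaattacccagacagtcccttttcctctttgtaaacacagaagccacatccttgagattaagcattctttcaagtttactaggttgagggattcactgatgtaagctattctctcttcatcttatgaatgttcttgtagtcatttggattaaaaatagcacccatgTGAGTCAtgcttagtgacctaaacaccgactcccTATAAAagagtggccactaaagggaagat
Mmp13 (chr9:7272264-7272513, plus strand): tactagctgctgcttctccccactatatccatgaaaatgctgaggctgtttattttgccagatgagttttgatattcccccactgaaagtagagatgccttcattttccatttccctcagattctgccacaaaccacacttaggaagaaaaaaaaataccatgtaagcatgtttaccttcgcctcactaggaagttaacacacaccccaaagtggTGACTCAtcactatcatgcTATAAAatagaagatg
In these sequences the GC box lies upstream of Adamts1, Mmp11 and Mmp14, and the AP-1 motif upstream of the 3 cluster genes. The contrast is between the cluster and the other members, not between varying and undetected members. Mmp15 and Mmp25, detected on no array, also have GC boxes. Adamts12, whose level spanned over 2 log2 units, has none of the 3 motifs. Mmp12, a cluster gene that also spanned over 2 log2 units, has the AP-1 motif in 1 of its windows.

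Of the detected members, 16 spanned at least 2 log2 units over the 7 arrays, an array not well above background being set at its lowest well-above level, and 22 spanned less. Of these 16, 10 were highest in E11.5 other GFP-positive cells, 3 in E9.5 other GFP-positive, 2 in E8.5 GFP-positive and 1 in E9.5 GFP-negative cells. No share over all genes was taken for this span or for the highest array. These counts are therefore not read as particular to the members. None of the 16 was highest in a gated population on its probe with the highest mean level, which stands for the gene here. The second probes of Adamts9, Adamts10 and Adamts18 were highest in E9.5 gated cells, at -1.68, -2.13 and -3.82. That of Mmp11 was highest in E11.5 other GFP-positive cells and that of Adamts16 in E9.5 GFP-negative cells. Those of Adamts12 and Mmp12 were not well above background on any array. The second probe of Timp2, outside the 16, was highest in E11.5 gated cells, at 1.46.

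Among the Adamts proteoglycanases, Adamts1 and Adamts9 varied most on the brighter probes. Adamts1 had log2 levels at E8.5 of 0.94 in GFP-positive and -0.08 in GFP-negative cells, at E9.5 of 1.33 in gated, 1.99 in other GFP-positive and 0.75 in GFP-negative cells, and at E11.5 of 1.33 in gated and 3.98 in other GFP-positive cells. The E11.5 other GFP-positive cells stood above the remaining 6 populations, and each GFP-positive population stood above the GFP-negative one of its stage. Adamts1, measured by a probe at chr16:85795044-85795103 of mm9, cuts versican and aggrecan, and its loss in mice disturbs the urinary tract. Adamts9 had log2 levels at E8.5 of 0.90 in GFP-positive and 0.69 in GFP-negative cells, at E9.5 of 1.80 in gated, 0.56 in other GFP-positive and 0.17 in GFP-negative cells, and at E11.5 of 1.45 in gated and 2.85 in other GFP-positive cells. Adamts9, another versican protease, was thus higher in the gated cells of E9.5 than in the other GFP-positive cells of that stage, with the opposite order at E11.5. The remaining proteoglycanases varied less on their brighter probes. Adamts4 spanned 1.49 to 3.34 with its highest level in E9.5 gated cells, Adamts15 spanned -2.10 to -0.54 with its highest in E9.5 GFP-negative cells, and Adamts20 was above background only in E9.5 gated and E9.5 GFP-negative cells. Adamts5 spanned -2.41 to -1.63 and Adamts8 -1.11 to -0.74. The other probes of Adamts5 and Adamts8, described below, varied more.

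The procollagen N-proteinases, which remove the amino-terminal propeptide of fibrillar procollagens, are Adamts2, Adamts3 and Adamts14. Adamts3 had log2 levels at E8.5 of -3.15 in GFP-positive and not well above background in GFP-negative cells, at E9.5 of -2.93 in gated, -1.70 in other GFP-positive and -3.09 in GFP-negative cells, and at E11.5 of not well above background in gated and -1.94 in other GFP-positive cells. Both other GFP-positive populations had the highest levels of Adamts3, which also takes part in activating Vegfc, a lymphatic growth factor. Adamts14 spanned -2.05 to -0.87. The brighter Adamts2 probe was above background on 6 arrays, with its lowest level there at -3.75 and its highest at -2.84.

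Adamts6 and Adamts10 bind fibrillin microfibrils. Adamts10 had log2 levels at E8.5 of -2.52 in GFP-positive and -2.85 in GFP-negative cells, at E9.5 of -2.96 in gated, -2.09 in other GFP-positive and -3.60 in GFP-negative cells, and at E11.5 of -2.41 in gated and -1.30 in other GFP-positive cells. On this probe the highest level was in E11.5 other and the second highest in E9.5 other GFP-positive cells. The second Adamts10 probe was highest in E9.5 gated cells, at -2.13. Adamts6 was above background on 5 arrays, highest at -2.74 in E11.5 other GFP-positive cells. Adamts7 and Adamts12 both cut cartilage oligomeric matrix protein. Adamts7 was well above background only in E11.5 other GFP-positive cells, at -2.76. Adamts12 had log2 levels at E8.5 of -1.68 in GFP-positive and -2.33 in GFP-negative cells, at E9.5 of -0.56 in gated, -1.04 in other GFP-positive and -0.23 in GFP-negative cells, and at E11.5 of 1.39 in gated and 1.56 in other GFP-positive cells. Levels of Adamts12, whose probe lies at chr15:11266072-11266131 of mm9, were ordered by stage, with no overlap between E8.5, E9.5 and E11.5 populations, on 1 array each. The second Adamts12 probe was not well above background on any array. Stage goes with the dissected tissue here, and the share of all genes so ordered was not counted. Both limits also hold where Mmp11, Mmp16, Mmp17 and Timp3 set the E11.5 populations apart below.

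Adamts18 had log2 levels at E8.5 of -3.85 in GFP-positive and not well above background in GFP-negative cells, at E9.5 of -1.57 in gated, -2.68 in other GFP-positive and not well above background in GFP-negative cells, and at E11.5 of not well above background in gated and -1.32 in other GFP-positive cells. Its signal was thus present in E9.5 gated but not well above background in E11.5 gated cells. The probe lies at chr8:116222720-116222779 of mm9. Adamts16 had log2 levels at E8.5 of not well above background in GFP-positive and not well above background in GFP-negative cells, at E9.5 of -3.28 in gated, -2.47 in other GFP-positive and -2.98 in GFP-negative cells, and at E11.5 of -3.34 in gated and -3.90 in other GFP-positive cells. Adamts16 was not well above background in either E8.5 population. Adamts19 had log2 levels at E8.5 of -2.10 in GFP-positive and not well above background in GFP-negative cells, at E9.5 of -1.67 in gated, -0.87 in other GFP-positive and -1.57 in GFP-negative cells, and at E11.5 of -0.93 in gated and -2.01 in other GFP-positive cells. Adamts19, a gene linked to heart valve disease, was higher in the E9.5 other GFP-positive and E11.5 gated cells than in the remaining populations. Adamts13, which cuts von Willebrand factor, spanned -3.78 to -2.49.

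The gelatinase Mmp2 and its membrane-bound activator Mmp14 varied widely. Mmp2 had log2 levels at E8.5 of 0.26 in GFP-positive and -1.64 in GFP-negative cells, at E9.5 of -0.23 in gated, 0.22 in other GFP-positive and -1.12 in GFP-negative cells, and at E11.5 of -1.73 in gated and 1.07 in other GFP-positive cells. The highest level was in E11.5 other GFP-positive cells and the lowest in E11.5 gated cells. Mmp2, with its probe at chr8:95376840-95376899 of mm9, degrades denatured collagen and type IV collagen. Mmp14 had log2 levels at E8.5 of -2.04 in GFP-positive and -3.08 in GFP-negative cells, at E9.5 of -1.84 in gated, -1.80 in other GFP-positive and -3.36 in GFP-negative cells, and at E11.5 of -1.83 in gated and -0.40 in other GFP-positive cells. Both GFP-negative populations had the lowest levels of Mmp14, which cuts fibrillar collagen and activates the Mmp2 precursor together with Timp2. The other gelatinase, Mmp9, was above background only in E8.5 GFP-positive cells, at -4.09.

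Mmp11 had log2 levels at E8.5 of -1.20 in GFP-positive and -2.57 in GFP-negative cells, at E9.5 of -1.65 in gated, -0.96 in other GFP-positive and -2.22 in GFP-negative cells, and at E11.5 of 0.19 in gated and 1.18 in other GFP-positive cells. Both E11.5 populations exceeded the remaining 5. Mmp11, stromelysin-3, is known from stromal cells beside epithelium and is activated inside the cell by furin. Its probe lies at chr10:75386209-75386268 of mm9. The stromelysin Mmp10 was above background only in E11.5 gated cells, at -4.14.

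Besides Mmp14, 5 membrane-type Mmps were measured or sought. Mmp16 had log2 levels at E8.5 of -3.83 in GFP-positive and not well above background in GFP-negative cells, at E9.5 of -1.66 in gated, -2.18 in other GFP-positive and -2.01 in GFP-negative cells, and at E11.5 of -1.25 in gated and -0.90 in other GFP-positive cells. Mmp16 was highest in both E11.5 populations. Mmp17 had log2 levels at E8.5 of 0.92 in GFP-positive and 0.18 in GFP-negative cells, at E9.5 of 0.35 in gated, 0.39 in other GFP-positive and 0.40 in GFP-negative cells, and at E11.5 of -1.31 in gated and -1.57 in other GFP-positive cells. Mmp17, which is anchored by a lipid, ran the other way, with both E11.5 populations below the remaining 5. Mmp24 spanned -1.54 to -1.17 on its brighter probe, and Mmp15 and Mmp25 were not well above background on any array.

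Mmp12 had log2 levels at E8.5 of -2.22 in GFP-positive and not well above background in GFP-negative cells, at E9.5 of -3.50 in gated, -3.52 in other GFP-positive and not well above background in GFP-negative cells, and at E11.5 of not well above background in gated and not well above background in other GFP-positive cells. Mmp12 was not well above background in either E11.5 population. These levels rest on 1 probe, as the second Mmp12 probe was not well above background on any array. Among macrophage markers, 7 or 8 of 9 were above background in every population, with summed log2 levels between 3.81 and 4.13. Csf1r, at 3.64 to 3.95, made up most of each sum, which therefore says little about the other markers. Tyrobp was above background only in E9.5 other GFP-positive cells (-2.70), E9.5 GFP-negative cells (-0.59) and E11.5 other GFP-positive cells (-2.64). Cx3cr1 was above background only in E11.5 gated cells, at -3.76, and the remaining markers on every array. The part of macrophages in the Mmp12 signal was not tested. Of the remaining Mmps, Mmp27 spanned -3.44 to -2.01 and Mmp28 -2.37 to -1.47 on all 7 arrays. Mmp8 and Mmp1b were above background on 5 and 4 arrays, with highest levels of -2.90 in E9.5 gated cells and -2.92 in E9.5 other GFP-positive cells. Mmp23 was above background on 6 arrays, at -2.79 at most. Mmp13 and Mmp21, of which Mmp21 acts in left-right patterning, were above background only in E9.5 other GFP-positive cells, at -3.90 and -3.63. The second Mmp21 probe was not well above background on any array.

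Among the inhibitors, Timp3 spanned the widest range on the brighter probes, although the other Timp2 probe, described below, also varied widely. Timp3 had log2 levels at E8.5 of -2.52 in GFP-positive and -1.93 in GFP-negative cells, at E9.5 of -1.52 in gated, -1.64 in other GFP-positive and -0.89 in GFP-negative cells, and at E11.5 of -2.97 in gated and -3.73 in other GFP-positive cells. Timp3, which stays bound to the matrix and inhibits several Adamts enzymes as well as Mmps, was lowest in both E11.5 populations. Its probe lies at chr10:85811696-85811755 of mm9. Timp2 spanned -0.42 to 0.50 and Timp4 -1.28 to -0.64, while Timp1 was above background on 5 arrays and highest at -2.56 in E11.5 other GFP-positive cells.

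**Figure D2:**
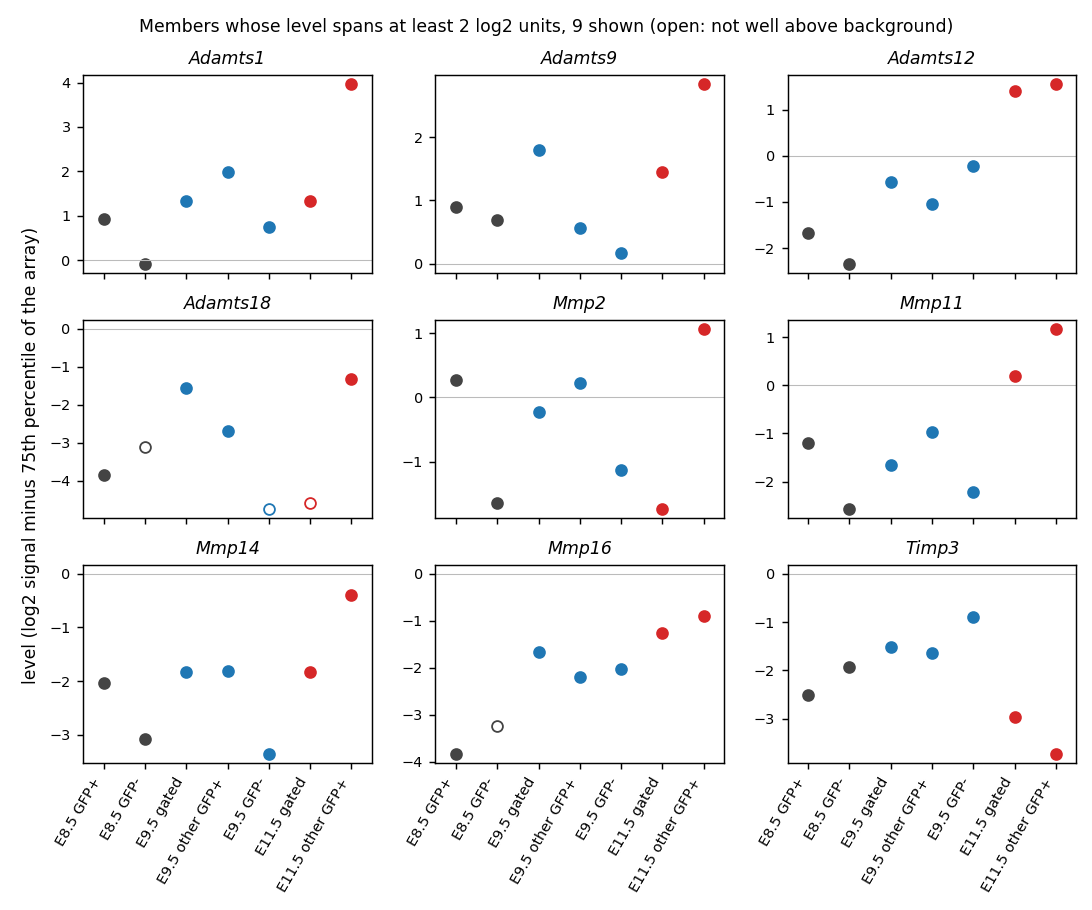
Log2 level (signal minus the 75th percentile of the array, vertical axis) of 9 members that span at least 2 log2 units, on the 7 arrays (horizontal axis, 1 point an array, coloured by stage). Open points are not well above background. Adamts1, Mmp2 and Mmp14 peak in E11.5 other GFP-positive cells, at 3.98, 1.07 and -0.40, and Timp3 is lowest there, at -3.73.

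In the E11.5 metanephric mesenchyme, a group of matrix proteases was lower in gated than in other GFP-positive cells. Of 33 members measured, 10 (30.3%) were at least 2-fold lower in gated cells, where 9.42% of all measured genes were, and 1 was at least 2-fold higher, where 10.5% of all genes were. The difference was 6.93-fold for Mmp2, 6.29-fold for Adamts1, 2.69-fold for Mmp14, 2.63-fold for Adamts6 and for Adamts9, and 2.15-fold for Adamts10. The second probes gave -0.71 log2 units for Adamts9 and 0.17, the opposite sign, for Adamts10. Among members not counted, second probes passed the limit for Mmp28, at least 6.36-fold, Adamts8, at least 4.15-fold, and Mmp11, 2.11-fold lower. Timp1, which inhibits most Mmps, was 2.88-fold lower in gated cells. A further 3 members were not well above background in gated cells, so their differences are bounds: Adamts18 was at least 9.64-fold, Adamts7 at least 5.12-fold and Adamts3 at least 4.71-fold lower. The second Adamts18 probe was not well above background in either E11.5 population, so it gave no value here. At 4-fold, 5 members (15.2%) were lower, namely Adamts1, Adamts3, Adamts7, Adamts18 and Mmp2, beside 3.23% of all genes. Adamts19 was the member above the limit in gated cells, by 2.11-fold. The median member was lower by 0.20 log2 units in gated cells, beside a median of 0.15 higher over all genes. Both arrays were on 1 slide.

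**Figure D3:**
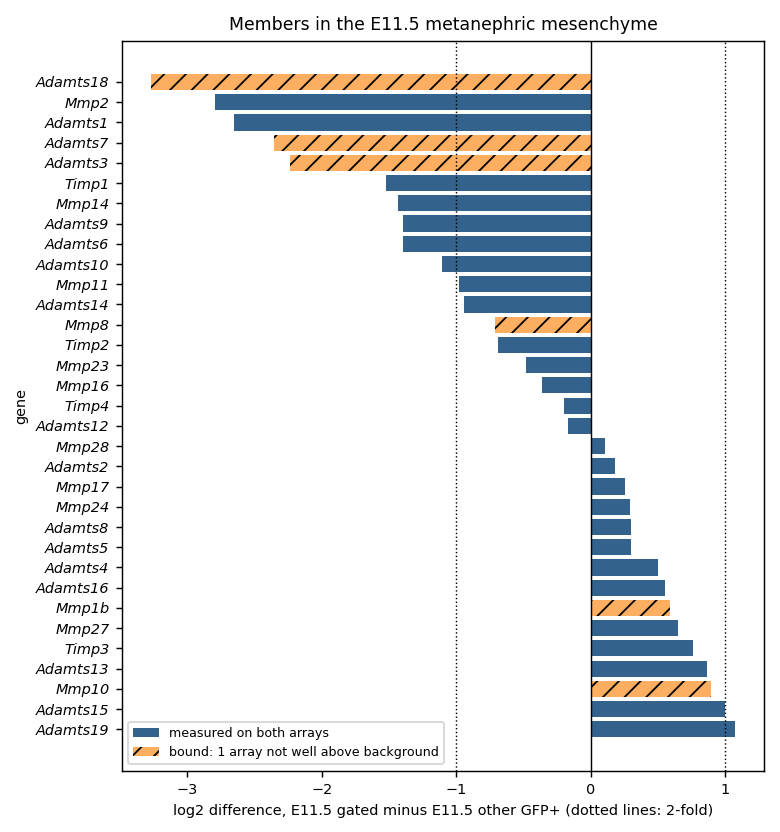
Log2 difference, E11.5 gated minus E11.5 other GFP-positive cells, for the 33 members measured (1 array each). Hatched bars are bounds, with 1 array not well above background, and dotted lines mark 2-fold. Bars to the left are lower in gated cells, from Adamts18 at -3.27 to Adamts10 at -1.11 beyond the line.

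The matrix substrates and other controllers moved on the same arrays. Of 17 listed substrates 16 were measured, of which 6 were lower and 3 higher in gated cells. The fibrillar collagens Col1a2, Col1a1 and Col3a1 had differences of -7.21, -6.59 and -5.76 log2 units, while the basement membrane genes Col4a1, Col4a2 and Lamc1 were the 3 higher. Of 27 listed controllers and relatives, 8 were lower and 2 higher. Pcolce, which enhances the carboxy-terminal processing of procollagen, was 25.8-fold lower, Plau, the urokinase that generates plasmin, at least 22.8-fold lower, and Adamtsl4, which binds fibrillin, 18.4-fold lower. The 8 stroma markers had a summed log2 level of 2.47 in gated cells, where 5 were above background but Pdgfra, Tbx18 and Twist1 were not, against 7.34 in other GFP-positive cells, where 8 of 8 were above background. The sort itself removed Pdgfra-positive cells from the gated population, and the part of stromal cells in the protease differences was not tested.

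At E9.5 the same gate showed fewer differences among proteases. Of 35 members measured, 2 were at least 2-fold higher in gated than in other GFP-positive cells, beside 5.13% of all genes, and 1 was lower, beside 9.38%. Adamts9 was 2.36-fold and Adamts18 2.17-fold higher in gated cells, and Adamts3 was 2.35-fold lower. The second probe of Adamts9 gave a log2 difference of 1.44. That of Adamts18 was not well above background in other GFP-positive cells, and its bound, at least 1.74-fold higher in gated cells, does not reach the limit. Outside the counted members, the second Adamts5 probe was at least 2.53-fold lower in gated cells. The median member lay at -0.33 log2 units, beside -0.15 for all genes. Adamts3 was the 1 member lower in gated cells at both stages. That is 10% of the 10 members lower at E11.5, beside 19.85% for all genes. Among the substrates, Col1a1 and Col3a1 differed by -2.26 and -2.16 log2 units and Col4a1 by 1.35. Among the controllers Plau was 7.92-fold higher in gated cells, with 1.80 log2 units for the other plasminogen activator, Plat, while Pcolce was 17.3-fold lower. The stroma marker sum was 3.93 in gated and 5.83 in other GFP-positive cells. These 2 arrays were on different slides, so slide and gate cannot be told apart here.

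The difference between other GFP-positive and GFP-negative cells at E9.5 was broader. Of 35 members measured, 11 (31.4%) were at least 2-fold higher in other GFP-positive cells, beside 8.57% of all genes, and 1 was lower, beside 5.17%. Mmp14 was 2.94-fold, Adamts10 2.85-fold, Mmp27 2.69-fold, Adamts3 2.63-fold, Mmp2 2.53-fold, Mmp11 2.40-fold and Adamts1 2.38-fold higher. Bounds applied to Adamts18, at least 3.36-fold, Mmp1b, at least 2.84-fold, Timp1, at least 2.76-fold, and Adamts6, at least 2.71-fold higher in other GFP-positive cells. Adamts20 was at least 2.05-fold lower. The second probes of Adamts10 and Mmp11 gave differences of 0.05 and 0.69 log2 units, below the limit. That of Mmp27 was not well above background in GFP-negative cells and gave a bound of 0.29. That of Adamts18 was not well above background in either population. For members not counted, second probes were at least 2-fold higher for Adamts2, Adamts9 and Timp2, and lower for Adamts8 and Adamts16. The median member lay at 0.51 log2 units and the median gene at 0.13. Reck, a membrane protein that inhibits several Mmps, was higher by 1.55 and Pcolce by 1.42 log2 units. The arrays were on different slides.

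Gated cells shared the GFP-negative array of E9.5 with that comparison, so the values are given side by side. Of 33 members measured, 5 were at least 2-fold higher in gated than in GFP-negative cells, beside 5.66% of all genes, and 1 was lower, beside 6.41%. Adamts9 was 3.11-fold, Mmp14 2.87-fold and Adamts4 2.81-fold higher in gated cells, Adamts18 at least 7.29-fold and Timp1 at least 2.03-fold higher, and Adamts15 2.60-fold lower. The second Adamts18 probe gave a bound of 0.61 log2 units, below the limit, and that of Adamts9 a bound of 2.75. Mmp14, Adamts18 and Timp1 were above the limit in both GFP-positive populations against the GFP-negative cells, Adamts18 only on its brighter probe. Beyond the counted members, second probes were at least 2-fold higher for Timp2 and lower for Adamts5, Adamts8, Adamts16 and Mmp24. The median member lay at 0.32 log2 units, beside 0.01 for all genes. The gated and GFP-negative arrays were on 1 slide.

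At E8.5, the members past the limit were all higher in GFP-positive cells. Of 32 members measured, 6 (18.8%) were at least 2-fold higher in GFP-positive than in GFP-negative cells, beside 7.02% of all genes, and 0 were at least 2-fold lower, beside 6.08%. Mmp2 was 3.74-fold, Mmp11 2.58-fold, Mmp14 2.07-fold and Adamts1 2.02-fold higher, with Adamts19 at least 2.56-fold and Mmp12 at least 2.36-fold higher. The second probe of Mmp11 gave 0.78 log2 units, and that of Mmp12 was not well above background in either population. Outside the 6, second probes were higher in GFP-positive cells for Timp2, by 2.03-fold, and Adamts2, by at least 2.29-fold. The median member lay at 0.12 log2 units, and the median gene at 0.00. These medians include differences set to 0 where a bound was not usable. Among members these were Adamts2, Adamts6, Adamts18, Mmp1b, Mmp8, Mmp9, Mmp16 and Timp1. Over genes above background on both arrays, the medians were 0.27 for members and 0.01 for all genes. The controllers with the largest differences were Plat at 1.66 and Adam19 at 1.57 log2 units. The 7 red blood cell markers had summed log2 levels of 2.71 in GFP-positive (6 above background, not Gata1) and 11.0 in GFP-negative cells (7 above) at E8.5. At E9.5 the sums were 0.76 in gated (3 above), 3.30 in other GFP-positive (6 above) and 10.2 in GFP-negative cells (7 above). The part of red blood cells in the differences against GFP-negative cells was not tested.

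Of the 10 members lower in the E11.5 gate, 8 were also among those higher in E9.5 other GFP-positive cells than in GFP-negative cells, in a pair of comparisons with no array in common. The 8 genes in both were Adamts1, Adamts3, Adamts6, Adamts10, Adamts18, Mmp2, Mmp14 and Timp1, which are 80.0% of the 10 lower in the E11.5 gate and 72.7% of the 11 higher at E9.5. For all genes 317 were in both, 15.5% and 15.6% of the lists. Of the 8, Adamts6, Adamts18 and Timp1 rest on bounds at E9.5, and Adamts3 and Adamts18 on bounds at E11.5. The second Adamts10 probe gave 0.05 log2 units at E9.5 and 0.17, the opposite sign, in the E11.5 gate. Under normexp both lists were shorter, as given below, and the overlap was not recounted. Adamts1, Mmp2 and Mmp14 were in both the E11.5 list and that of the 6 higher in E8.5 GFP-positive cells, which is 30% and 50% of these lists, beside 15.6% and 22.5% for all genes.

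**Figure D4:**
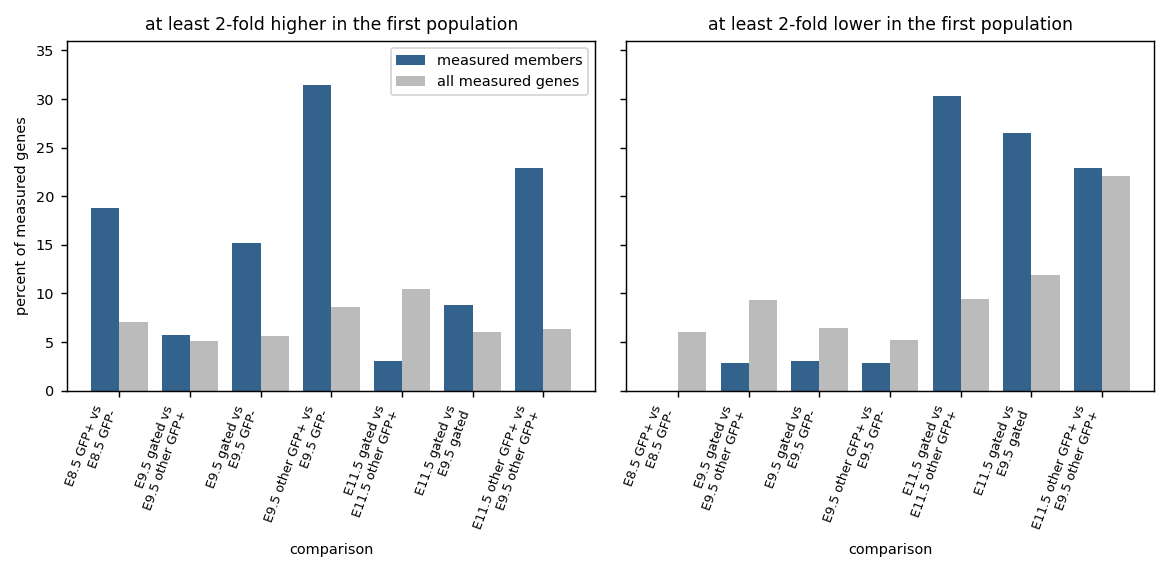
Percent of measured members (blue) and of all measured genes (grey) that were at least 2-fold higher (left panel) or lower (right panel) in the first-named population of each of 7 comparisons (1 array a population). Members stand at 31.4% beside 8.57% for the E9.5 other GFP-positive cells against GFP-negative cells, and at 30.3% beside 9.42% for lower genes in the E11.5 gate.

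Between stages, the comparison also spans the dissected tissue, since the caudal part of the embryo was taken at E9.5 and the metanephric mesenchyme at E11.5, and these cannot be told apart. In other GFP-positive cells, 8 of 35 measured members (22.9%) were at least 2-fold higher at E11.5 than at E9.5, beside 6.36% of all genes. Adamts12 was 6.06-fold, Adamts9 4.87-fold, Mmp11 4.41-fold and Adamts1 3.96-fold higher at E11.5. The second probe of Adamts9 gave 0.99 log2 units, under 2-fold, and those of Adamts12 and Adamts18 were not well above background at either stage, while that of Mmp11 gave 2.14. Mmp14 was 2.65-fold, Adamts18 2.57-fold and Mmp16 2.44-fold higher, and Adamts7 at least 3.62-fold. Another 8 (22.9%) were lower at E11.5, which is near the 22.1% of all genes that were. They included Timp3, 4.28-fold lower, Mmp17, 3.90-fold lower, Adamts16, 2.68-fold lower (-0.40 log2 units on its second probe), Adamts19, 2.20-fold lower, and Adamts15, just past the 2-fold limit, with Mmp1b at least 3.47-fold, Mmp21 at least 2.66-fold and Mmp12 at least 2.15-fold lower. The second probes of Mmp12 and Mmp21 were not well above background at either stage. In members not counted, second probes were at least 2-fold higher at E11.5 for Timp2 and Mmp28 and lower for Adamts2 and Adamts5. The median member lay at -0.23 log2 units and the median gene at -0.36, and this median depends on the scaling, at 0.00 for all genes after quantile normalization. Adamtsl4, Adamtsl3 and Plau were higher at E11.5 by 4.11, 2.15 and 1.86 log2 units, and the substrates Ncan, Col1a1 and Col5a1 by 2.25, 2.22 and 1.86. The stroma marker sum was 7.34 at E11.5 and 5.83 at E9.5, and that of 7 endoderm and epithelium markers was -0.34 at E11.5 (4 above background, not Foxa1, Foxa2 or Cdh1) and 4.16 at E9.5 (7 above), whose part in these differences was not tested. Both arrays were on 1 slide.

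In gated cells, 3 of 34 measured members were at least 2-fold higher at E11.5 than at E9.5, beside 6.05% of all genes, and 9 (26.5%) were lower, beside 11.9%. Adamts12 was 3.87-fold, Mmp11 3.60-fold and Adamts13 2.45-fold higher at E11.5. The second probe of Adamts13 was not well above background in E9.5 gated cells and gave no usable bound. Mmp17 was 3.16-fold, Mmp2 2.83-fold, Timp3 2.73-fold and Adamts14 2.26-fold lower. Bounds applied to Adamts18, at least 8.14-fold (at least 2.46-fold on its second probe), Mmp8, at least 3.29-fold, Adamts3, at least 2.37-fold, Adamts20, at least 2.09-fold, and Mmp12, at least 2.04-fold lower at E11.5. The second probes of Adamts12 and Mmp12 were not well above background in gated cells of either stage. In members not counted, second probes were at least 2-fold higher at E11.5 for Timp2 and lower for Adamts8 and Adamts9. Adamts12 and Mmp11 were higher at E11.5, and Mmp12, Mmp17 and Timp3 lower, in both the gated and the other GFP-positive cells. The 3 lower in both were 33.3% of the 9 lower in gated cells, near the 33.6% for all genes. They were 37.5% of the 8 lower in other GFP-positive cells, beside 16.4% for all genes. The 2 higher in both were 66.7% and 25% of the lists of higher members, beside 23.7% and 20.5% for all genes. Plau, above the limit in the E9.5 gate, was at least 49.9-fold lower in E11.5 gated cells. The median was -0.03 log2 units for members and for all genes. Of the 8 stroma markers, 6 were at least 2-fold lower at E11.5, with sums of 2.47 at E11.5 (5 above background) and 3.93 at E9.5 (8 above). Of the 8 endothelium markers, 6 were lower, with sums of 1.73 at E11.5 (5 above background, not Cdh5, Tek or Tie1) and 2.92 at E9.5 (8 above). The endoderm and epithelium sum was 0.38 at E11.5 and 2.53 at E9.5, with 4 of 7 above background at both stages. The part of these cells in the protease differences was not tested. The arrays were on different slides.

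Probes of 1 gene did not always show the same pattern. For the 17 members with several probes, both probes were above background on both arrays in 50 pairs of gene and comparison. In 18 of these pairs, from 7 members, the differences lay more than 1 log2 unit apart. Adamts2, Adamts8, Mmp24 and Timp2, whose brighter probes spanned less than 1 log2 unit, were among the 7. The other Mmp24 probe ranged from -2.925 in E9.5 gated to -1.56 in E11.5 other GFP-positive cells. That of Adamts2 was highest in E8.5 GFP-positive cells, at -2.26. The brighter probe of Adamts8 spanned -1.11 to -0.74, whereas its other probe ranged from not well above background at E8.5 GFP-negative and E11.5 gated cells to -1.03 in E9.5 GFP-negative cells. For Adamts5, the other probe was above background only in E9.5 other GFP-positive cells, at -3.27, and E9.5 GFP-negative cells, at -2.42. The other Timp2 probe had log2 levels of 1.46 in E11.5 gated and 1.31 in E11.5 other GFP-positive cells, against -1.67 to -0.23 in the 5 earlier populations. The other Mmp11 probe, like the brighter one, was highest in both E11.5 populations, at -0.57 in gated and 0.50 in other GFP-positive cells. The other Adamts9 probe was not well above background in 3 populations and highest in E9.5 gated cells, at -1.68, and that of Adamts12 was not well above background on any array. The 2 Mmp28 probes show how such pairs are placed. Each is printed as the array design gives it, and each can be read through without a stop codon in 2 frames.
Mmp28 brighter probe (mm9, chr11:83257262-83257321, minus strand): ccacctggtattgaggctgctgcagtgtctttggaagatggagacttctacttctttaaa
Mmp28 other probe (mm9, chr11:83256140-83256199, minus strand): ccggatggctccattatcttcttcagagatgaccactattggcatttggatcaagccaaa
The first was above background on 7 arrays, from -2.37 to -1.47, and the second only in E11.5 other GFP-positive cells, at -2.45. Which probe follows the transcript more closely was not tested.

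**Figure D5:**
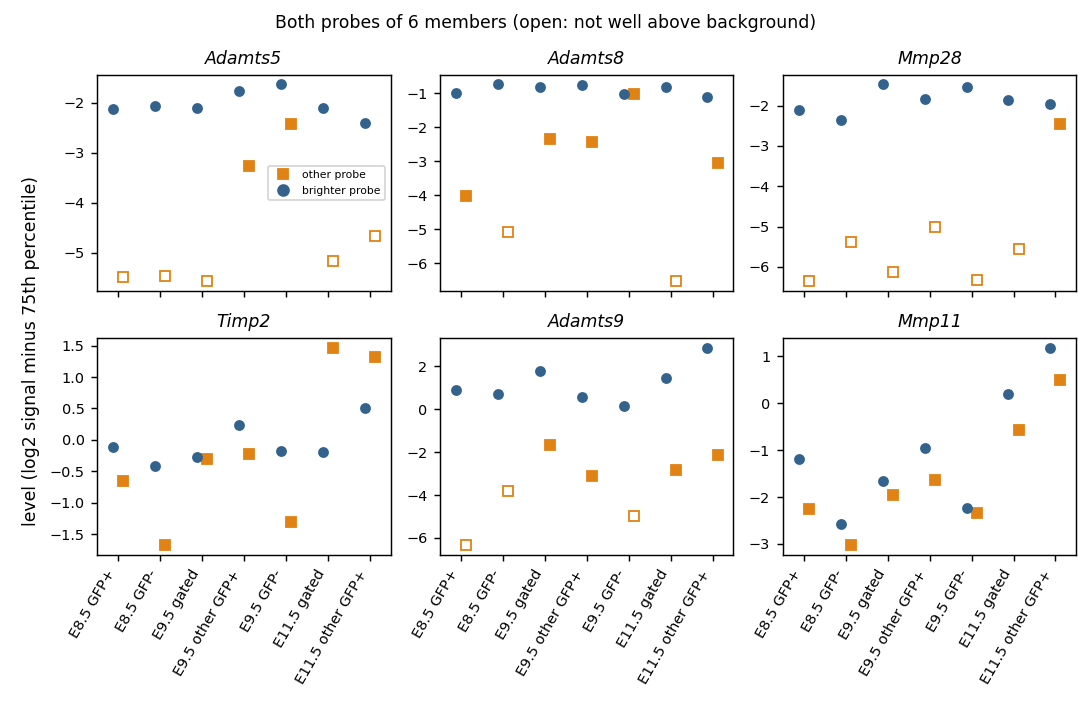
Log2 level (signal minus the 75th percentile of the array, vertical axis) on the 7 arrays (horizontal axis) of the brighter probe (blue circles) and the other probe (orange squares) of 6 members. Open symbols are not well above background. The Mmp11 probes run in parallel, while the other Mmp28 probe is above background only in E11.5 other GFP-positive cells, at -2.45.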

How the data were processed

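RNA (10 ng) from each of 7 sorted populations was amplified and hybridised to 1 single-colour array each, per the labels. Per the file headers, the deposited values are spot intensity on a linear scale after background subtraction. The submitters' processing notes name Agilent Feature Extraction 10.7.3.1 as the software. The value table the authors deposited holds the same intensity for all 62976 rows, unscaled, with medians of 30.6 to 51.3.

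Outlier spots (127 to 160 an array) were left out, spots of a probe were averaged, and levels are log2 intensity minus the 75th percentile of the array. A probe counted as above background where at least 0.5 of its spots did, and a gene was measured in a comparison if 1 of the arrays was above background. A dim side was set at the higher of its own level and the lowest well-above level of its array (-5.12 to -3.46), which gives a bound, printed as "at least". Where this put the dim side above the detected side, the bound was not usable and the difference was set to 0. The probe with the highest mean level stood for a gene. All 62 member probes kept the gene name of the array, and the accession of 57 of them was found in RefSeq. Other probes took the RefSeq symbol of their accession where there was 1, and otherwise the array name. Spots of 399 probes placed 10 times varied by a median SD of 0.10 log2 units within an array, or 0.14 for a difference, which is technical only. With 1 array a population there was no test.

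Members and lists were chosen with earlier results of these data known. Every member is named. All 7 values are printed for members that span at least 2 log2 units, and list genes are those with the 3 largest differences. Alternatives changed the background correction (normexp, limma 3.58.1 in R 4.3.3), scaling, filter and probe. Python 3.11.15, pandas 2.3.3 and numpy 2.4.6 were used, and the calculation was tested on simulated data.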

Additional observations from a re-analysis of the deposited data

Results flagged for a closer look

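Adamts9 and Adamts18 differed in opposite directions between the stages of the gate. Adamts9 was higher in gated than in other GFP-positive cells by 1.24 log2 units at E9.5, whereas its E11.5 difference was -1.40. Adamts18 was at 1.12 log2 units at E9.5 and, as a bound, at -3.27 at E11.5. Between E11.5 and E9.5, Adamts18 was lower in gated cells, at -3.03 as a bound, and higher in other GFP-positive cells, at 1.36. The second Adamts9 probe gave 1.44 at E9.5 and -0.71 at E11.5, and the second Adamts18 probe was above background only in E9.5 gated cells. With 1 array a population, the difference between these differences was not tested.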

How the results depend on the processing

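With 1 array a population, the number of arrays limits every result, and levels near background (E8.5 GFP-negative cells above all) give only bounds. No paired analysis was possible because each population has 1 array, and slide could not be fitted as a term for the same reason. Of 437 alternative values for 66 named differences, 436 kept their sign and 358 stayed at least 2-fold. The exception in sign was Adamts10 in the E11.5 gate, at 0.17 with the most 3-prime probe, an alternative chosen after seeing the data. All 66 were chosen as at least 2-fold, and some alternatives return the reported value for many genes. A kept sign was therefore largely set in advance and is no test. Values moved by at least 0.14 log2 units for 59 differences under normexp, 45 unscaled, 26 after quantile normalization and 23 for the mean over probes. Fewer moved that far under the other alternatives.

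Counts of members moved by more than 1.5 times as follows from those given above. Normexp, whose offset of 50 compresses low signals, gave for higher members 1 at E8.5, 1 in the E9.5 gate, 3 for E9.5 gated and 1 for E9.5 other against GFP-negative cells, 0 in the E11.5 gate and 4 for other GFP-positive cells across stages. For lower members it gave 0 in each of the E9.5 comparisons, 4 in the E11.5 gate, 2 for gated and 1 for other GFP-positive cells across stages. Quantile normalization gave 2 lower in the E9.5 gate and 4 lower for other GFP-positive cells across stages. Without scaling there were 2 lower for E9.5 other against GFP-negative cells, 0 higher in the E11.5 gate and 5 lower for other GFP-positive cells across stages. Requiring both arrays above background left 3 higher for E9.5 gated, 7 higher and 0 lower for E9.5 other against GFP-negative cells, 4 lower for gated and 5 lower for other GFP-positive cells across stages. With no filter there were 12 higher and 1 lower at E8.5, 4 lower in the E9.5 gate, 8 higher for E9.5 gated against GFP-negative cells and 6 higher in the E11.5 gate. The mean over probes gave 1 lower at E8.5, 2 lower in the E9.5 gate, 2 lower for E9.5 gated against GFP-negative cells and 1 higher for gated cells across stages. The most 3-prime probe gave 2 lower in the E9.5 gate, and 4 lower for E9.5 gated and 2 for E9.5 other against GFP-negative cells. The 10 members lower in the E11.5 gate became 4 to 12 over the alternatives. The median of all genes for other GFP-positive cells across stages was -0.36 as reported, 0.00 after quantile normalization and -0.19 unscaled.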

Other observations

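Plau, the urokinase-type plasminogen activator, had log2 levels at E8.5 of -3.61 in GFP-positive cells and not well above background in GFP-negative cells. At E9.5 its level was 0.52 in gated, -2.46 in other GFP-positive and -2.60 in GFP-negative cells, while the E11.5 gated cells were not well above background, against -0.61 in other GFP-positive cells. The gated minus other difference was thus 2.99 log2 units at E9.5 and, as a bound, -4.51 at E11.5. The difference between the stages was not tested.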
